A study of Mus musculus with 9 samples.

Results

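The 4 adult globin genes Hbb-bs, Hbb-bt, Hba-a1 and Hba-a2 were compared with 5 other erythroid genes, Alas2, Slc4a1, Epb42, Klf1 and Gata1, in whole osteosarcomas of genetically engineered mice. These 9 genes were picked by symbol from a table of 55367 genes, and all 9 were found in it. They were selected on their measured counts in these tumors: the globins had been seen to stand high in the tumors M624 and M664 and to be near 0 in the other 7. The split of M624 and M664 against the other 7 is therefore given as a description, without a test. The question put to the data was whether the other erythroid genes followed the globins across the same 9 tumors.

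Gene expression was measured by RNA-Seq as read counts per gene in 9 tumors. The 4 of the p53-driven group carry the names F187, F325, F331 and F368. The 5 of the Myc-knockin group are called M351, M408, M9, M624 and M664. The first group arose in Col2.3-Cre, Trp53 fl/+ mice, in which an osteoblast promoter drives Cre and 1 copy of Trp53 can be deleted. The Myc-knockin tumors carried the same conditional Trp53 allele and a lox-stop-lox c-Myc T58A allele, which Cre switches on. M624 and M664 were both assigned to the Myc-knockin group, M664 (like M351 and M9) from the letter M in its column name only. Ages and tumor sites are not used here. Tumor tissue was sequenced whole, so blood and marrow cells in the sample contribute RNA, and fewer cells of a type and less RNA per cell cannot be told apart. Myc itself lay between 144 and 1045 CPM, the counts scaled to a common library size, in the Myc-knockin tumors and between 43.5 and 67.1 CPM in the p53-driven tumors, with no overlap; scaled by library size alone, the groups overlapped (51.2 CPM or more against up to 81.7 CPM).

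Red blood cells are made in the bone marrow from erythroblasts, which are nucleated cells that fill with hemoglobin and then expel the nucleus. Hemoglobin pairs alpha chains with beta chains, each holding a heme group. Erythroid transcription factors such as GATA1 and KLF1 turn on the globin genes together with the genes for heme synthesis and for the red cell membrane. The young red cells released into blood, reticulocytes, have no nucleus and still carry globin mRNA.

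The libraries differed in ways that bear on every value below. Total counts ranged from 2716322 to 17073285. Reads on 12 satellite-repeat genes made up 23.2% to 81.0% of the counts in F187, M351, M408 and M9 and at most 0.0242% in the other 5 libraries. Values are CPM on TMM-adjusted library sizes, and 3 counts, taken as the floor of detection, corresponded to 0.114 CPM in M624, the lowest, and to 2.39 CPM in M9, the highest. Rn7sk, an abundant nuclear RNA without a poly(A) tail, stood at 3.47 and 6.35 CPM in M624 and M664 and at 6545 CPM or more in each of the other 7. As a background, the mean count per kilobase of exon over 1781 odor, pheromone and related receptor genes, which bone tumors are not known to use, was taken for every library.

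The adult alpha-globin genes lie side by side on chromosome 11, Hba-a1 at chr11:32283511-32284465 and Hba-a2 at chr11:32296489-32297298 on the plus strand (GENCODE M21, GRCm38). The adult beta-globin genes lie on the minus strand of chromosome 7, Hbb-bs at chr7:103826534-103828096 and Hbb-bt at chr7:103812524-103813996. Within each pair the coding sequences differed at a single base, C381T from Hba-a1 to Hba-a2 over 426 bases and C417T from Hbb-bs to Hbb-bt over 441 bases, counted from 1 at the start codon. Both changes were silent: 142 of 142 codons and 147 of 147 codons, stop codons left out, gave the same residue. The coding stretches that hold the difference are shown 5′ to 3′ with the differing base in capitals, since only reads over such places can tell the copies apart.
Hba-a1, chr11:32284328-32284357: gcatgcctctctggaCaaattccttgcctc
Hba-a2, chr11:32297145-32297174: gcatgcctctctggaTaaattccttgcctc
Hbb-bs, chr7:103826678-103826707: ggtggctggagtggcCgctgccctggctca
Hbb-bt, chr7:103812669-103812698: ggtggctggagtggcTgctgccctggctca

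Over whole transcripts the paralogs shared more than they differed. Of all 76-base stretches, the read length of the study, 62.0% of those in Hba-a1 were also found in Hba-a2, and 80.8% of those in Hba-a2 were also found in Hba-a1. The shares were 64.2% for Hbb-bs and 56.5% for Hbb-bt. The transcript models of Hba-a1 and Hbb-bt begin upstream of their start sites in the RefSeq promoter table used below. Their shares thus count stretches that begin before those sites. How reads that map to both copies were counted is not given in the sources used here, so the split between paralogs is uncertain, and the sum within each pair is the firmer value.

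**Figure D1:**
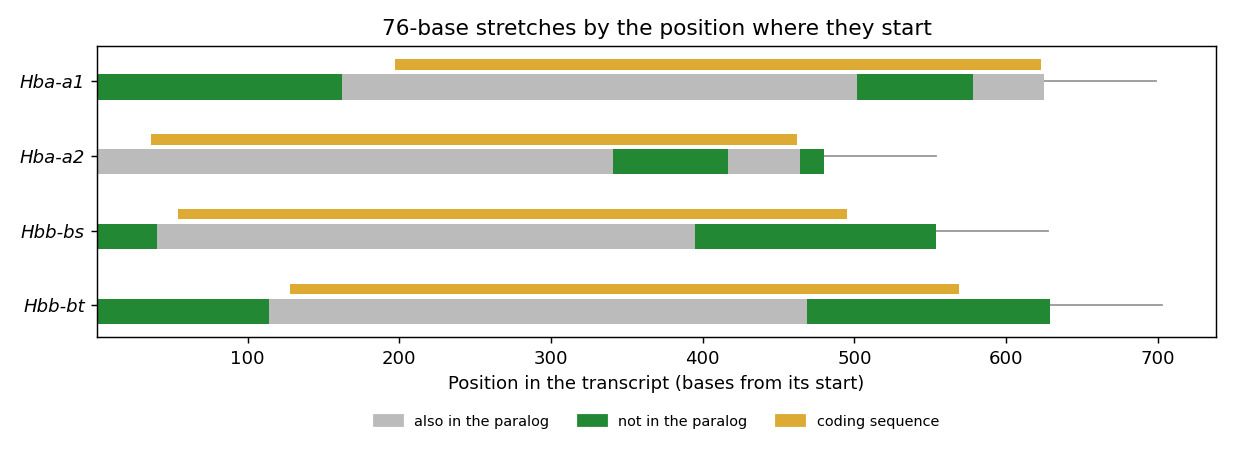
Stretches of 76 bases in the 4 adult globin transcripts, placed at the base where each stretch begins (x axis, bases from the transcript start). Grey marks stretches also present in the paralog, green those that are not, and yellow the coding sequence. Grey covers 62.0% of Hba-a1, 80.8% of Hba-a2, 64.2% of Hbb-bs and 56.5% of Hbb-bt. The models of Hba-a1 and Hbb-bt begin upstream of the RefSeq start sites, so part of their first green run lies before those sites.

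Promoters of 8 of the 9 genes were found in the RefSeq promoter table (GRCm38.p6, 250 bases before to 50 after the start site). They were searched on both strands for the GATA motif, a CACCC-type motif, a CCAAT box and the TATA-box letters ATATAA. The GATA motif was spelled as AGATAA with T also allowed at its first and G at its last place. The CACCC-type motif was spelled as CCNCNCCCN, where N is any base. The GATA motif was present in 6 of the 8 promoters and in 30.2% of all 27025 promoters of the table. The CACCC-type motif was present in 4 of 8, against 49.1% of all. CCAAT was present in 5 of 8 against 37.9%, and ATATAA in 4 of 8, the 4 globins, against 10.2%. A motif match describes letters in the window and is not a binding site. Stretches are shown for both kinds of gene, on the strand of the gene, with the match in capitals; TTATCT and TTATCA are GATA motifs read on the opposite strand.
Hbb-bs, CACCC-type, chr7:103828003-103828032: attccgtagagCCACACCCTggtaagggcc
Hba-a1, ATATAA, chr11:32283632-32283661: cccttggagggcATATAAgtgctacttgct
Alas2, GATA, chrX:150547319-150547348: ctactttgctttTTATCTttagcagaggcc
Klf1, GATA, chr8:84901890-84901919: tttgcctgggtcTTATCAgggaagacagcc

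All 4 globins were high in M624 and M664 and near or at 0 elsewhere. Hbb-bs, the major adult beta-globin, had 2474 counts (94.3 CPM) in M624, 8041 counts (347 CPM) in M664, 1 count in M9 and 0 counts in the other 6 tumors. Hba-a1, an adult alpha-globin, had 2684 counts (102 CPM) in M624, 8995 counts (388 CPM) in M664 and was at 0 in all 7 others. Hbb-bt, the second adult beta-globin, had 251 counts (9.56 CPM) and 608 counts (26.3 CPM) in the pair, 1 count each in F187 and M351, and 0 counts in the other 5. These 3 genes separated the pair from the other 7 tumors without overlap, Myc-knockin tumors included. Hba-a2, the second alpha-globin, was much lower, with 32 counts (1.22 CPM) in M624, 33 counts (1.42 CPM) in M664 and 0 counts elsewhere. Its values in the pair were below the floors of M351 and M9, so in those libraries a level like that of the pair was not detectable at this depth.

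Summed, the globins had 23118 counts in M624 and M664 and 3 counts in the other 7 libraries, where the background estimate gave 9.82 counts. On counts pooled over libraries and scaled by library size, the globin sum was 6787 times higher in the pair (exact 95% interval 2322 to 32915, counting error only). With each of the other 7 libraries set at its floor of 3 counts, the means were 485 CPM in the pair and 0.976 CPM at the floor, a log2 ratio of 8.96. For Hba-a1, at 0 in all 7, the ratio to this floor was at least 251-fold higher. The globins made up 0.0319% of all counts in M624 and 0.112% in M664.

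Non-overlap of this kind was common in the table: of 9547 genes with a mean of at least 10 CPM, 22.1% were higher in both M624 and M664 than in all other 7, and 11.6% were lower in both. Among the members, Hbb-bs, Hba-a1 and Alas2 had a mean of at least 10 CPM. Both globins reached it only through M624 and M664 and were selected on this split. Their place above the other 7 was thus fixed by the selection and is not set against the 22.1%. Alas2 was not above the other 7. The split also follows other values of the libraries. Of 10 RNAs mostly without a poly(A) tail, 7 were lower in the pair than in all other 7, among them Rny1 and Rny3, small cytoplasmic RNAs at 0 CPM in both tumors of the pair. The summed level of these 10 RNAs was 3.96 to 6.95 CPM in the pair and 6682 CPM or more elsewhere. Whether the library preparation has a part in the globin result was not tested, and the study describes the same library protocol for all tumors. M624 and M664 are the tumors both with high globins and with low Rn7sk, so library content and the tumor cannot be told apart.

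**Figure D2:**
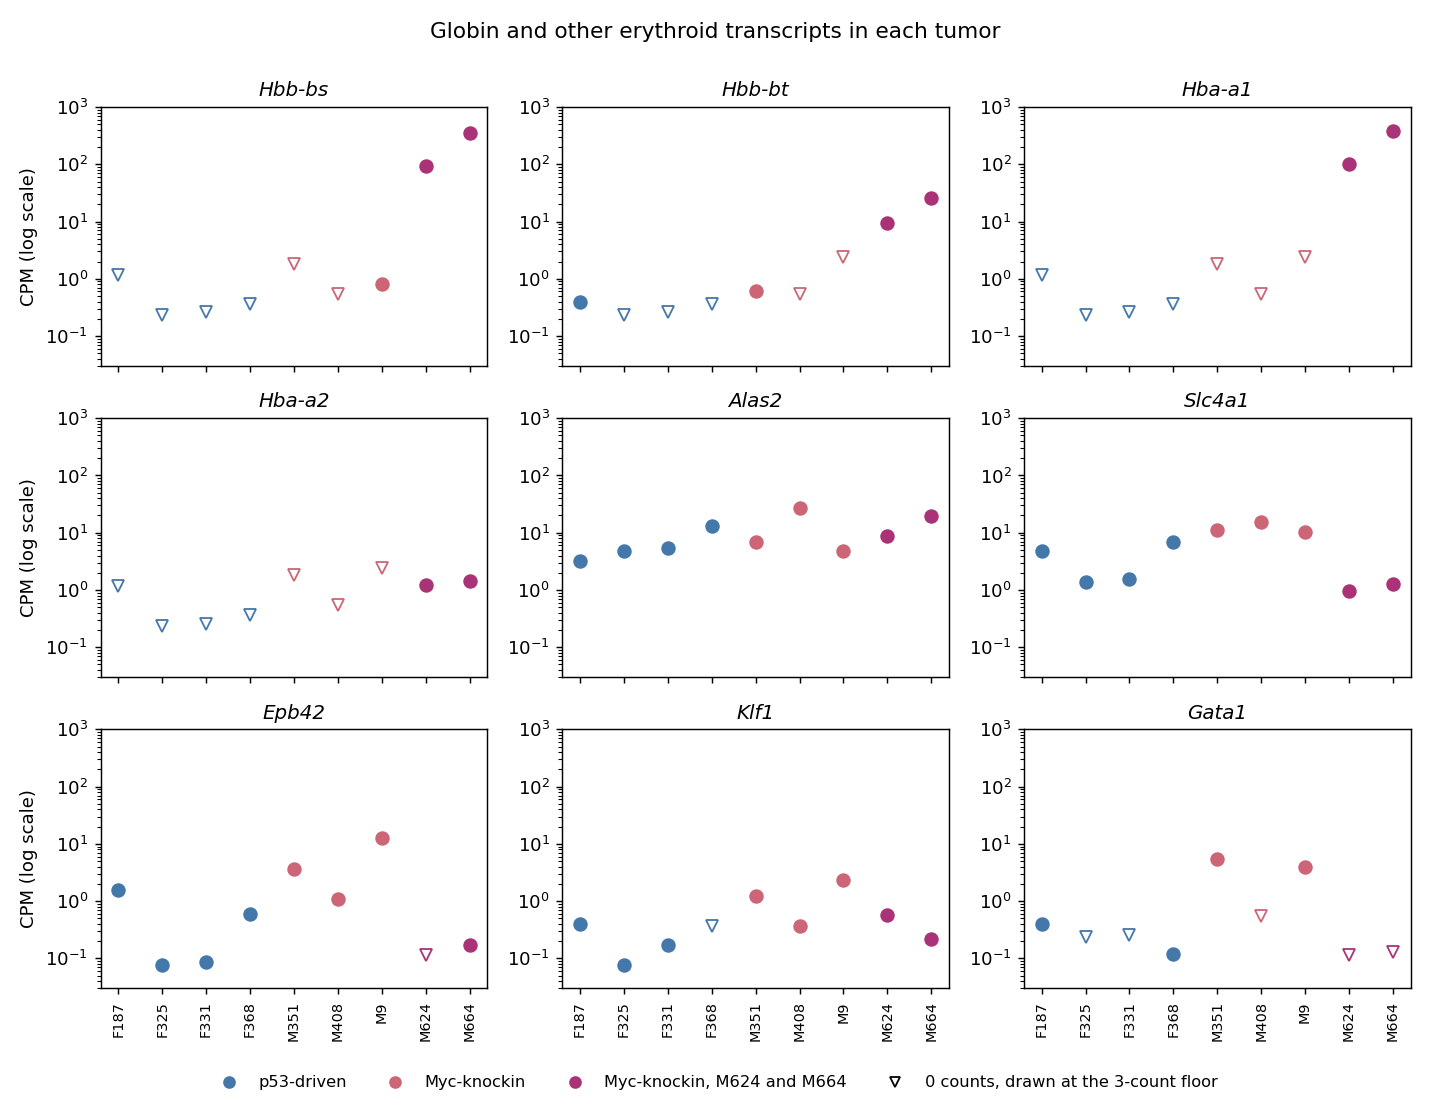
CPM on a log axis for each of the 9 genes (panels) in each tumor (x axis); blue points are p53-driven, light red Myc-knockin and purple the Myc-knockin tumors M624 and M664, and open triangles mark 0 counts, drawn at the 3-count floor of that library. The globins stand out in M624 and M664 (Hbb-bs at 94.3 and 347 CPM), whereas Alas2 overlaps between the pair and the others and Slc4a1 is lowest in the pair.

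The balance between the globin genes was alike in the pair in some respects and not in others. Alpha chains made up 49.9% of globin counts in M624 (exact 95% interval 48.6 to 51.3%) and 51.1% in M664 (50.3 to 51.8%). Hbb-bt made up 9.21% of beta-globin counts in M624 (8.15 to 10.4%) and 7.03% in M664 (6.50 to 7.59%). Hba-a2 made up 1.18% of alpha-globin counts in M624 (0.807 to 1.66%) and 0.366% in M664 (0.252 to 0.513%). The intervals of both minor copies did not overlap between the tumors, and they cover counting error only. Of the stretches that differ between the alpha paralogs, 92 belong to Hba-a2 and 237 to Hba-a1. Those of Hba-a1 that begin at bases 1 to 161 of its transcript model begin upstream of its start site in the promoter table. Those that begin at bases 502 to 577 span the coding difference. Reads over that difference can tell the copies apart in both, and the larger number for Hba-a1 depends on where its transcript begins.

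None of the 5 non-globin genes separated the pair upward from all 7 others. Alas2, on chromosome X, encodes the erythroid form of the first and rate-limiting enzyme of heme synthesis. It was detected in every tumor, at 3.16, 4.74, 5.36 and 12.9 CPM in F187, F325, F331 and F368, at 6.77, 26.7 and 4.78 CPM in M351, M408 and M9, and at 8.69 and 19.7 CPM in M624 and M664. The highest value was in M408, which had 0 globin counts, and F368 lay between both tumors of the pair. The pair and the other 7 overlapped, with 5 of the 7 below the pair and 1 above it. Mean Alas2 was 14.2 CPM in the pair and 9.21 ± 8.34 CPM (SD, n = 7) in the others, a log2 ratio of 0.62 against 8.96 for the globin sum. The Alas2 ratio was -0.08 without M664, 1.10 without M624 and 1.17 without M408.

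Slc4a1, on chromosome 11, encodes band 3, the anion exchanger of the red cell membrane. Its values were 4.74, 1.40, 1.56 and 6.93 CPM in F187, F325, F331 and F368, 11.1, 15.2 and 10.4 CPM in M351, M408 and M9, and 0.953 and 1.30 CPM in M624 and M664. All 7 others lay above the pair, F325 only slightly, so the order was opposite to that of the globins; with library size alone as the scaling the groups overlapped. Mean Slc4a1 was 1.12 CPM in the pair and 7.32 ± 5.17 CPM (SD, n = 7) in the others, a log2 ratio of -2.70. Against F325, F331 and F368 alone it was -1.55. Satellite genes made up at most 0.0242% of the counts in those libraries and at most 0.000182% in the pair. Of the Slc4a1 counts, the background estimate gave 5.50 of 18 in M351 and 6.08 of 13 in M9. A kidney form of band 3 comes from the same gene, and the count does not separate the forms.

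Epb42, which encodes protein 4.2 of the red cell membrane skeleton, had few counts. It had 4, 1, 1 and 5 counts in F187, F325, F331 and F368, 6, 6 and 16 counts in M351, M408 and M9, and 0 and 4 counts in M624 and M664. The background estimate alone gave 18.0 of the 39 counts in the other 7 tumors. In CPM it was highest in M9 (12.7 CPM), the library with the largest satellite share, and at or near the floor in the pair.

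Klf1 and Gata1, the erythroid transcription factors, had few counts. Klf1 had 15 and 5 counts in M624 and M664 and between 0 and 3 counts in each other library, 11 in all, of which the background estimate gave 5.09. In CPM, Klf1 at 0.572 and 0.216 in the pair lay within the range of the other 7 (0 to 2.39 CPM). The upper end of that range was 3 counts in M9, where the background estimate gave 1.90. In F325, F331 and F368, the others with a low satellite share, Klf1 was at 0.0778, 0.173 and 0 CPM, below both tumors of the pair. Against these 3 the order of Klf1 was thus that of the globins, on 3 counts in all. Gata1 had 0 counts in both M624 and M664, the deepest libraries. Its 16 counts in the other 7 were 9 in M351, 5 in M9 and 1 each in F187 and F368, with 8.11 expected as background. No Gata1 was thus detected beside 23118 globin counts, at floors of 0.114 and 0.130 CPM.

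Setting the genes against each other within a library removes the scaling between libraries. Globin counts were 23.9 times the Alas2 counts in M624 (exact 95% interval 20.9 to 27.4) and 38.8 times in M664 (35.3 to 42.6). In the other 7 the ratio was 0 in F325, F331, F368 and M408, with upper limits of 0.0623, 0.0613, 0.0354 and 0.0256, and it rested on 1 globin count each in F187, M351 and M9. M408 had 146 Alas2 counts and 0 globin counts, and the other 7 tumors together had 400 Alas2 counts and 3 globin counts. The globins were selected on this split, so the gap between these ratios restates the selection. Against the sum of all 5 non-globin genes, the globin counts were 20.3 times higher in M624 and 35.7 times higher in M664.

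**Figure D3:**
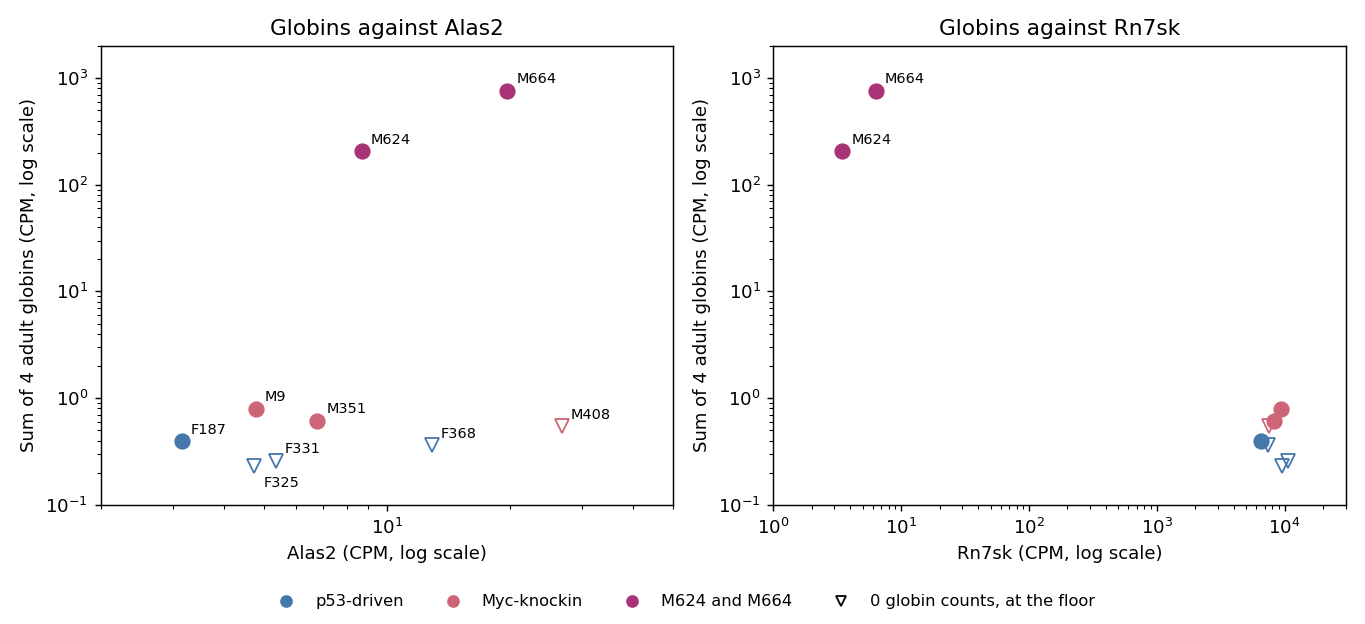
Summed CPM of the 4 adult globins (y axis, log) against Alas2 (left) and Rn7sk (right; x axes in CPM, log), 1 point per tumor, with open triangles for 0 globin counts drawn at the floor. M408 has the highest Alas2 (26.7 CPM) and 0 globin counts, and M624 and M664 stand apart in both panels, with Rn7sk at 3.47 and 6.35 CPM.

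Between the 2 tumors of the pair, more of the genes moved together. From M624 to M664, Hbb-bs was 3.68 times higher in CPM, Hba-a1 3.80 times, Hbb-bt 2.75 times, Alas2 2.27 times and Slc4a1 1.36 times, whereas Hba-a2 was 1.17 times higher. Klf1 went the other way, with a ratio of 0.378 on 15 and 5 counts. With 1 library on each side, these ratios have no replicate check. Endothelial markers, which report blood vessels, also differed between these tumors: summed, they came to 108 CPM in M624, 527 CPM in M664 and 209 to 496 CPM in the other 7. Vessel content as a part of the globin result was not tested. Summed markers of other blood lineages overlapped between the pair and the others. The 10 megakaryocyte and platelet markers summed to between 6.71 and 33.2 CPM in the pair and 7.01 to 31.1 CPM elsewhere, and the 11 marrow neutrophil markers to between 4.57 and 9.33 CPM in the pair and 5.21 to 136 CPM elsewhere. The 11 mast cell and eosinophil markers summed to between 4.99 and 49.6 CPM in the pair and 22.9 to 79.7 CPM elsewhere. Lower in both tumors of the pair than in all 7 others were 1 of the 10 megakaryocyte and platelet markers (Ppbp), 2 of the 11 neutrophil markers (Ltf and Ngp) and 1 of the 11 mast cell and eosinophil markers (Cpa3). Of all genes of at least 10 CPM, 11.6% were. Ltf and Ngp overlapped with library size alone. None of these markers was higher in both, where 22.1% of those genes were. The median log2 ratio of the 4 neutrophil markers that passed the count filter was -2.09, on means that single high tumors weigh on. S100a8 stood at 1.26 and 1.55 CPM in the pair, with a median of 1.58 and a maximum of 41.9 CPM in the other 7. S100a9 stood at 1.22 and 3.54 CPM, with a median of 2.08 and a maximum of 62.8 CPM. Mpo and Ngp lay below the median of the other 7 in both tumors. The 9 osteoblast and bone markers, which bear on the labelled tissue, summed to 3609.7 CPM in M624, 41257 CPM in M664 and 9668 to 141163 CPM in the other 7. M624 thus stood below every other tumor, with the osteoblast factor Runx2 at 9.18 CPM against at least 132 CPM, and the bone matrix gene Ibsp at 34.1 CPM against at least 535 CPM. The part of this in the globin result was not tested.

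Per kilobase of exon, a scale on which genes can be compared, Hba-a1 and Hbb-bs led in M624, with 123 CPM for Hbb-bs, 13.6 for Hbb-bt, 3.62 for Alas2, 1.83 for Hba-a2, 0.374 for Klf1 and 0.195 for Slc4a1. In M664 the order began with Hba-a1 (478 CPM per kilobase), Hbb-bs (452), Hbb-bt (37.3) and Alas2 (8.19). In M408, with no globin counts, the order was Alas2 (11.1 CPM per kilobase), Slc4a1 (3.11), Klf1 (0.239) and Epb42 (0.203).

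The other genes of the alpha and beta clusters, which are mostly embryonic, were near 0 in the pair, with at most 3 counts per gene. In the other 7 they had at most 10 counts per gene. Of 7 such genes, none was higher in both tumors of the pair than in the other 7. Among all genes of at least 10 CPM 22.1% were, but these genes had means of at most 0.793 CPM, so the shares are not alike. The sum was 0.114 CPM (M624) and 0.173 CPM (M664) in the pair, against 0 to 17.5 CPM in the others. Hbb-bh0 had 0 counts in all 9 tumors.

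Other erythroid genes were taken from lists by role, with the same split as a description. Of 20 membrane and skeleton genes, none was above the other 7 in both tumors of the pair, and 2 were below. Of all genes of at least 10 CPM, 22.1% were above and 11.6% below. Ermap, an erythroid membrane-associated protein, was 1 of the 2 membrane genes below, at 0 and 0.259 CPM in the pair and 0.519 to 5.54 CPM elsewhere. The median log2 ratio of the 13 membrane genes that passed the count filter was -0.51, against -0.11 over all 15365 genes tested; with library size alone these medians became 0.27 and 0.53, so the list stayed below all genes but changed sign. Highly expressed members of this list that other tissues also use overlapped, such as Aqp1 (46.1 and 261 CPM in the pair, 31.1 to 215 elsewhere) and Epb41 (56.7 and 52.3 CPM, against 52.6 to 112).

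Heme synthesis genes leaned the other way. Of 7 genes, 4 were above the other 7 in both tumors, Alad, Urod and Ppox among them, where 22.1% of all genes of at least 10 CPM were, and the list's median log2 ratio was 0.91, or 0.93 to 1.05 above the median of all genes under the 4 scalings tried. Urod, for example, stood at 31.4 and 30.5 CPM in the pair and at 7.97 to 22.7 CPM elsewhere, and Fech, which inserts the iron, overlapped at 25.4 and 56.0 CPM against 29.5 to 66.9. These enzymes are made in most cells that make heme, whereas the erythroid Alas2 overlapped as given above.

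Of 10 other transcription regulators of the lineage, Ldb1 was above (84.4 and 129 CPM, against 20.9 to 38.2) and Tal1 below (0.953 and 1.77 CPM, against 1.83 to 3.98). These counts, and those of the next lists, stand beside 22.1% above and 11.6% below among all genes of at least 10 CPM. The median of the regulators was -0.62, which became 0.20 with library size alone. Tal1 overlapped with library size alone and without the satellite genes in the library size. Gfi1b had 0 counts in both tumors. Of 6 iron and hormone receptor genes, Epor, the erythropoietin receptor, was above at 11.9 and 3.84 CPM against 0.366 to 3.19, but it overlapped with upper-quartile normalization. Of 16 other red cell and late erythroid genes, 4 were above (Bpgm, Blvrb, Prdx2 and Bnip3l), a share near that 22.1%, and 1, Car1, was below at 0 and 0.216 CPM against 0.366 to 3.69. Prdx2, a peroxidase abundant in red cells and present in other cells, stood at 153 and 206 CPM against 57.7 to 86.2.

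**Figure D4:**
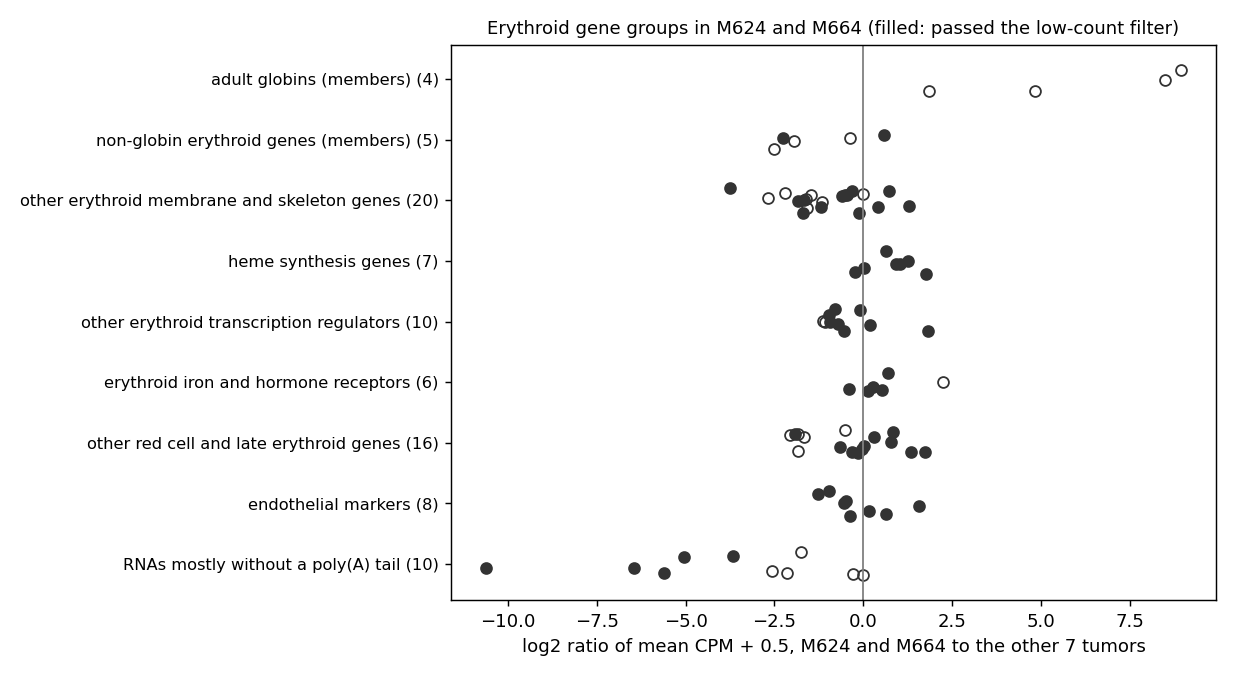
Log2 ratio of mean CPM + 0.5 in M624 and M664 to that in the other 7 tumors (x axis), 1 point per gene, by gene group (number of genes in parentheses); filled points passed the low-count filter. Hbb-bs, Hba-a1 and Hbb-bt lie to the right of all other points, Hba-a2 (1.87) lies among the highest of the other erythroid genes, the RNAs mostly without a poly(A) tail lie furthest left (Rn7sk at -10.61), and the other erythroid groups spread around 0.

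Across all 9 tumors, the genes most like Hbb-bs in log2 CPM were Fbrsl1 (Pearson r = 0.990), Med9 (0.990), Jagn1 (0.983), Pebp1 (0.982) and Zfp771 (0.982), none an erythroid marker. In all, 330 of 9538 candidates with a mean of at least 10 CPM had r over 0.9, and each such r rests largely on M624 and M664. With Hbb-bs, r was 0.984 for Hba-a1, 0.36 for Alas2 and -0.57 for Slc4a1. Those most like Alas2 were Tspan11 (0.937), Zwint (0.921), Ino80c (0.915), Metap2 (0.907) and Plaur (0.894). These values describe 9 tumors that differ in depth and library content.

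The study's own comparison, Myc-knockin against p53-driven, was tested across all genes in edgeR by quasi-likelihood, with Benjamini-Hochberg adjusted p values. In the 9 tumors 5.27% of 15365 tested genes were called (adjusted p under 0.05 and fold over 1.5), and in the 7 tumors without M624 and M664 4.61% of 14308 were called. Only Alas2 and Slc4a1 of the 9 members passed the count filter, and neither was called. Alas2 had a log2 fold change of 1.04 ± 0.58 (SE, edgeR adjusted p = 0.276), and 1.11 ± 0.65 (edgeR adjusted p = 0.304) in the 7 tumors. Slc4a1 had 1.07 ± 0.88 (edgeR adjusted p = 0.466), and 1.86 ± 0.60 (edgeR adjusted p = 0.101) in the 7 tumors.

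Over all 9 tumors the Slc4a1 values of the groups overlapped (two-sided exact permutation p = 0.302). In the 7 tumors those of the Myc-knockin group (10.4 to 15.2 CPM) lay above those of the p53-driven group (1.40 to 6.93 CPM). The two-sided exact permutation p was 0.0571, the smallest that 7 tumors can give. The groups overlapped with library size alone (two-sided exact permutation p = 0.286) and with the genomic background subtracted (two-sided exact permutation p = 0.114). All 3 of these Myc-knockin libraries hold at least 23.2% satellite reads, as does 1 of the 4 p53-driven libraries. The part of these reads in the difference was not tested. With genes of at least 10 counts in every tumor, Slc4a1 was called (log2 fold change 1.99, edgeR adjusted p = 0.0464), as it was with limma-voom (2.28, adjusted p = 0.0414). It was not called under the other 6 settings of the fit (edgeR or DESeq2 adjusted p from 0.0548 to 0.268), nor with any 1 of the 7 tumors left out (edgeR adjusted p from 0.0968 to 0.230).

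The non-globin genes left out by the filter were compared one by one. The globins were selected on values that enter both the 9-tumor and the 7-tumor contrast, so no p is given for them. In M351, M408 and M9 they had 2 counts in all, and in the p53-driven tumors 1. By two-sided exact permutation over 9 tumors, the p was 0.556 for Gata1, 0.349 for Epb42 and 0.0476 for Klf1. For Klf1 the means were 0.955 ± 0.891 CPM (SD, n = 5) in Myc-knockin and 0.161 ± 0.171 CPM (SD, n = 4) in p53-driven tumors, values near the floors of these libraries. Klf1 was 1 of 3 such tests, and its p is not adjusted for them. By the same test the p for Klf1 was 0.0317 with library size alone and 0.0159 with the genomic background subtracted, likewise unadjusted. In the 7 tumors the exact permutation p was 0.114 for Klf1 and Epb42 and 0.286 for Gata1. With library size alone the exact permutation p there was 0.0571 for both Klf1 and Epb42. With the genomic background subtracted it was 0.0571 for Klf1 and 0.286 for Epb42.

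Of the erythroid lists, 1 gene was called in the 9 tumors, where 5.27% of all tested genes were. Fam210b, a mitochondrial gene of late erythroid cells that other tissues also express, was lower in Myc-knockin tumors (log2 fold change -1.33 ± 0.31, edgeR adjusted p = 0.0372), at 8.99 and 11.6 CPM in M624 and M664 and 5.86 to 29.8 CPM in the other 7. None of the 13 tested membrane genes, 7 heme synthesis genes, 8 regulators and 5 iron and hormone receptor genes was called by edgeR in the 9 tumors, where the median log2 fold change over all genes was 0.14. The Fam210b call itself was lost with library size alone (edgeR adjusted p = 0.245), with all genes of at least 1 count (edgeR adjusted p = 0.153) and without any 1 of F187, F325, F331, F368, M351, M408 or M624 (edgeR adjusted p = 0.0515 to 0.129). In the 7 tumors, where 4.61% of genes were called, Fam210b was again called (-1.48, edgeR adjusted p = 0.0397), with 1 gene each of 3 other lists. Aqp1, a water channel of red cells and of vessels, was lower in Myc-knockin (-1.71, edgeR adjusted p = 0.0355), as was the iron transporter Slc11a2 (-1.26, edgeR adjusted p = 0.0329), and Bcl11a, a repressor of fetal globin genes, was higher (4.17, edgeR adjusted p = 0.0401). Of the bone markers, Bglap and Bglap2, which encode osteocalcin, were lower in Myc-knockin in the 9 tumors (-5.34 and -5.42, edgeR adjusted p = 0.0260 and 0.0288) and in the 7, and the collagen genes Col1a1 (-3.30, edgeR adjusted p = 0.0367) and Col1a2 (-3.20, edgeR adjusted p = 0.0459) were lower in the 7. In the 9 tumors both osteocalcin calls were lost without F325, F331 or F368, and that of Bglap2 also without F187 or M351. No gene was called by edgeR in the 7 tumors once F325, F331, F368, M351 or M408 was left out.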

How the data were processed

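RNA was measured in 9 whole tumors, 4 p53-driven and 5 Myc-knockin. The authors enriched mRNA with oligo-dT, sequenced paired reads, trimmed them with Trim Galore, mapped them to mm10 with STAR and deposited raw counts per gene from featureCounts in 1 table; strand and multi-mapping settings are not given in the sources used here. Column names match no sample label: 6 were placed by the genotype under which the study lists cell lines of those names, and M351, M9 and M664 by the letter M. Nothing ties a column to a numbered sample. No step that removes globin RNA is named.

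The members and gene lists were chosen with earlier results of these data known. One gene of the satellite list was replaced by Gm21738 after the table was seen. Named genes are all members, called genes of each list, up to 4 genes of a list with the highest mean CPM, and the 5 most like Hbb-bs and Alas2; others were chosen after their values were seen.

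Counts were tested in R 4.3.3 with edgeR 4.0.16 (TMM, filterByExpr with a minimum count of 10, glmQLFit and glmQLFTest, Benjamini-Hochberg adjustment), and a gene was called at adjusted p under 0.05 and fold over 1.5. DESeq2 1.42.0 and limma 3.58.1 (voom with quality weights) were alternatives, and the fit was tested on simulated data. Single non-globin genes left out by the filter, and Slc4a1, which passed it, were compared by scipy 1.17.1's two-sided exact permutation test. It ran over 126 arrangements of 9 tumors (smallest p 0.0159) or 35 of 7 (smallest p 0.0571). The pair was compared with the other 7 by the ratio of mean CPM, with each library set at 3 counts where all 7 were at or under that floor. Pooled counts served only for intervals, which are 95%, exact, and cover counting error only, as do floors. P values measure the spread between these tumors. Positions and exon lengths came from GENCODE M21 (GRCm38). Values of 2 genes of the erythroid lists are not reported here.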

Additional observations from a re-analysis of the deposited data

Results flagged for a closer look

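Of 20 gene and group combinations checked for 1 tumor far from the others of its group, 4 stood out. The measure was the gap to the nearest value as a share of the range of the group. A lone count beside tumors at 0 always stands out on this measure, and the globins were selected on these values. The number of flags is therefore not set against chance. In the Myc-knockin group, M664 was far above the other 4 tumors for Hbb-bs, at 347 CPM against 94.3 CPM in M624, the nearest. M664 was likewise far above for Hba-a1, at 388 CPM against 102 CPM in M624. In the p53-driven group, F187 stood apart for Hbb-bt at 0.395 CPM, which is 1 count, with the other 3 tumors at 0. M9 stood apart for Epb42 in the Myc-knockin group, at 12.7 CPM against 3.69 CPM in M351, the nearest; M9 had 16 counts, of which the background estimate gave 6.73.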

How the results depend on the processing

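No paired analysis was possible because the columns carry no replicate numbers. The globin sum stayed far higher in the pair than in the other 7 under every alternative run. Its log2 ratio of 8.96 became 10.07 with library size alone and 10.73 with F187, M351, M408 and M9 left out of the other 7 (an alternative chosen after seeing the data), since the floor then falls, and it ranged from 7.73 to 9.61 with 1 tumor left out, lowest without M664. For the sum of the non-globin members the log2 ratio of -0.44 was within 1 SD of the other 7 (1.09) throughout: it was 0.30 with library size alone, 0.48 without the 4 satellite libraries, and -1.07 to -0.01 with 1 tumor left out. Klf1 went from -1.31, against the floor, to 0.46 without the 4 satellite libraries. The floor, a mean of 0.976 CPM, was above the observed Klf1 mean of the other 7, 0.662 CPM. On pooled counts the Klf1 ratio of the pair to the other 7 was 1.60 (exact 95% interval 0.731 to 3.70, counting error only). The median log2 ratio of all tested genes moved from -0.11 to 0.53 with library size alone and to -0.30 with upper-quartile normalization.

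Between genotypes, edgeR called 809 genes in 9 tumors, against 136 with library size alone, 494 with all genes of at least 1 count, 1316 with at least 10 counts in every tumor, 2646 with DESeq2, 1663 with limma-voom and 4595 without the 4 satellite libraries. With 1 tumor left out the count ran from 5 to 1588, with 5, 6 and 8 without F368, F331 and F325, 335 without F187, 371 without M351, 375 without M624 and 1588 without M9. In 7 tumors it called 660, against 264, 2717, 1108, 2052 and 2008 with library size alone, all genes of at least 1 count, at least 10 counts, DESeq2 and limma-voom, and 0 to 1188 with 1 tumor left out. It called 0 without F325, F331, F368, M351 or M408, where 2809 to 4989 genes had an unadjusted edgeR p under 0.05, and 1188 without F187. The cause was not tested. Slc4a1 turned to a log2 fold change of -1.502 (edgeR adjusted p = 0.239) without the 4 satellite libraries, where the Myc-knockin tumors left are M624 and M664. Alas2 in the 7 tumors turned to -0.33 without M408, the lowest of a range that reached 1.65. Depth limits Hba-a2, Klf1, Gata1 and Epb42 most, since 3 counts were worth up to 2.39 CPM.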
